A study of Mus musculus with 18 samples.

Results

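The genes described here are the Zfp genes of the mouse, the zinc finger protein genes that carry a numbered name, as measured in the hippocampus of Atrx mutant mice with and without 5-aminolevulinic acid. Members were all probes whose symbol in the array's annotation is Zfp followed by digits only: 214 of the 23473 probes on the array, which stand for 212 of the 16446 named genes. The study asked how hippocampal RNA differs between wild-type mice, AtrxΔE2 mice and AtrxΔE2 mice given 5-aminolevulinic acid (5-ALA), and it used 18 single-colour microarrays, with as many mice as arrays per the labels. The 3 groups were 4 AtrxΔE2+5-ALA mice, which received 3 mg/kg of 5-ALA by mouth every day from postnatal day 30 to day 90, 7 AtrxΔE2 mice for which the labels give no treatment, and 7 Wild-type mice, also with no treatment given. AtrxΔE2 mice lack exon 2 of Atrx and serve as a model of the human ATR-X intellectual disability syndrome. The labels give no strain, sex or vehicle, and the age at dissection is not stated there. The array identifiers fall into 2 series: a first one with 3 AtrxΔE2 and 3 Wild-type arrays and a second one with 4 AtrxΔE2+5-ALA, 4 AtrxΔE2 and 4 Wild-type arrays, so the 5-ALA comparisons lie wholly in the second series.

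Many Zfp genes encode proteins with a row of C2H2 zinc fingers that reads DNA, and a large share of these also carry a KRAB domain. KRAB zinc finger proteins recruit TRIM28 and the histone methyltransferase SETDB1 and so silence transposable elements and imprinted regions. ATRX, a chromatin remodeller that places histone H3.3 with DAXX, was found in human and mouse cells on the heterochromatin at the 3′ exons of zinc finger genes, and it binds G-rich repeats that can fold into G-quadruplexes. 5-ALA is a precursor of porphyrins and haem, which bind G-quadruplexes. The name Zfp is older than these classes, and it also covers proteins with quite other roles: of the 214 probes, 39 carry a symbol that RefSeq has since replaced, and 32 of those no longer start with Zfp, such as Zmym2 (formerly Zfp198, a MYM-type zinc finger protein of corepressor complexes), Rnf114 and Rnf112 (formerly Zfp313 and Zfp179, RING-type ubiquitin ligases) and Zbtb18 (formerly Zfp238, a repressor needed for the development of cortical and hippocampal neurons). Current names are used below. A split of the members by KRAB domain or finger count was not analysed here.

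Each probe's value is a log2 normalized intensity. An offset of 50 was added before log2, which shrinks the log2 differences of dim probes. A small difference of a dim probe therefore does not show that its RNA changed little. A probe was tested where it exceeded the 95th percentile of the array's blank spots on at least 4 arrays. Of the 214 member probes, 213 were tested, 203 of them above the blanks on all 18 arrays and 10 on fewer, and the only one left out was the second probe for Zfp407. Tests were moderated t statistics from limma, fitted on all 22538 probes that passed, and a probe is said to be called, or to have risen or fallen, where its p-value adjusted over all of them by the method of Benjamini and Hochberg is under 0.05. To set the members beside probes of like brightness, the 15937 other named probes were divided into 5 equal classes by mean signal and weighted as the Zfp probes are spread over those classes; these are called the probes of like signal. Most Zfp probes lay in the 3 middle classes (59, 64 and 48 probes from dim to bright), with 26 in the dimmest and 16 in the brightest. Several Zfp genes are near-identical copies of a neighbour, and which transcripts each probe reads was not tested.

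Atrx itself, the targeted gene, was lower in AtrxΔE2 than in wild-type hippocampus by a log2 difference of -0.40 over both series (limma, adjusted p = 0.0103, 17 arrays with a usable spot). It was called in neither series alone, at -0.52 in the first (limma adjusted p = 0.179) and -0.29 in the second (limma adjusted p = 0.0927). In the authors' deposited table of linear intensities, the ratio of mutant to wild-type means was 0.46 in the first series and 0.56 in the second. The hippocampal neuron markers were all above the blanks. Markers of neighbouring tissue varied with the array series and the groups: the summed linear level of 9 choroid plexus markers was 108 to 226 on the first-series arrays and 47648 to 56163 on the second-series arrays. In the second series, 7 striatal markers summed to 8193 to 9319 after 5-ALA, 13817 to 16345 in AtrxΔE2 mice and 9239 to 11198 in wild-type mice, and 10 microglial markers to 3296 to 3541 after 5-ALA, 4335 to 5159 in AtrxΔE2 mice and 4573 to 5144 in wild-type mice. The part of these tissues in the differences below was not tested, and in a bulk sample fewer cells of a type and less RNA per cell cannot be told apart. The mean signal of the blank spots moved with the groups too, at 61.9 to 63.2 on 5-ALA arrays, 59.3 to 61.6 on AtrxΔE2 arrays and 55.3 to 56.6 on wild-type arrays of the second series.

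On this log2 scale, the typical Zfp gene differed little between AtrxΔE2 and wild-type mice, and the array series did not give the same direction. Over both series, the median log2 difference between AtrxΔE2 and wild-type mice was -0.00070 for the 213 Zfp probes and 0.0018 for the probes of like signal, and 103 of the Zfp probes (48.4%) were higher in the mutants. No Zfp probe was called by limma in this comparison, in which 0.444% of all tested probes were called, and 16 Zfp probes (7.51%) had an unadjusted p under 0.05, against 9.22% of all tested probes and 10.2% of the probes of like signal. The single probes spanned log2 differences of -0.25 (Zfp644) to 0.21 (Zfp113).

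The array series gave opposite small shifts of the group median. In the first series the median of the Zfp probes was 0.014 higher in AtrxΔE2 mice, with -0.000046 for the probes of like signal, and 134 Zfp probes (62.9%) were on the higher side, against 49.6% of the probes of like signal. In the second series the Zfp median was -0.019, with 0.0036 for the probes of like signal, and 84 Zfp probes (39.4%) were on the higher side, against 52.0%. Scaling each array to its median in place of quantile normalization gave a Zfp shift, relative to probes of like signal, of 0.0014 in the first series and -0.049 in the second, so the sign held under that scaling although the first shift nearly vanished.

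Array by array, the median of the Zfp probes minus that of the probes of like signal, each set against the mean of the wild-type arrays of the same series, was -0.030, -0.019, -0.0072 and -0.016 on the 4 AtrxΔE2 arrays of the second series, against 0.0047, -0.012, 0.0016 and -0.0015 on the wild-type arrays. It was 0.0035, 0.018 and 0.018 on the AtrxΔE2 arrays of the first series, against -0.0039, -0.011 and 0.018 on the wild-type arrays. AtrxΔE2 and wild-type arrays overlapped in both series by this measure. The 4 AtrxΔE2+5-ALA arrays were at 0.0080, -0.0066, 0.0030 and -0.010, inside the range that the wild-type arrays of both series span, and the SD between arrays of one group was 0.0098.

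**Figure D1:**
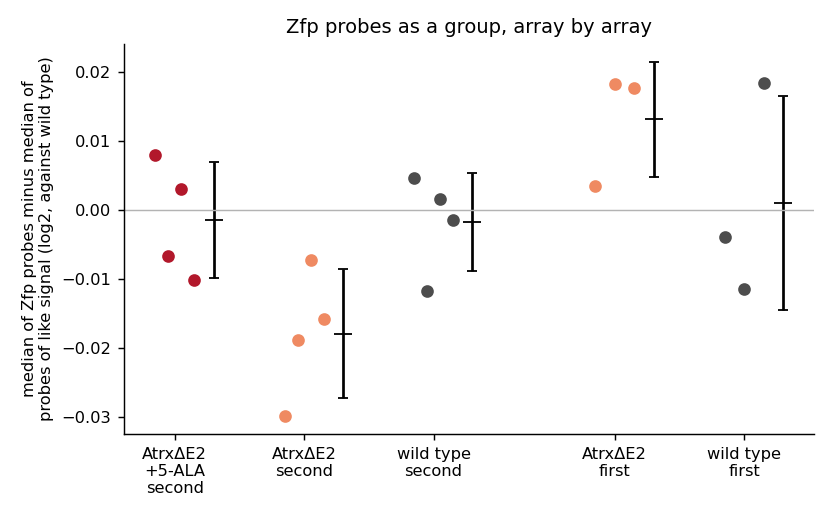
Each point is an array: the median log2 intensity of the 213 Zfp probes minus that of the probes of like signal, both relative to the mean of the wild-type arrays of the same array series; bars are the mean and SD of a group. All values lie between -0.030 and 0.018, the 4 AtrxΔE2 arrays of the second series are all below 0 and the 3 of the first series all above it.

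Across the 213 Zfp probes, the genotype differences of the first and of the second series, which share no array, had a Pearson correlation of -0.12 and a Spearman correlation of -0.15. Of these probes, 91 (42.7%) had the same sign in both, against 49.6% of the other named probes, for which Pearson's correlation was 0.029. These are descriptions across probes, which are not independent of each other. In a test of the difference between the series (limma interaction), 0 Zfp probes were called, with 0.102% of all tested probes called, and 23 Zfp probes (10.8%) had an unadjusted p under 0.05, against 8.94% of all tested probes.

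In the second series taken alone, 3 of 213 Zfp probes (1.41%) were called between AtrxΔE2 and wild-type mice, when 2.41% of all tested probes were (1.22% higher and 1.19% lower). The 2 that rose were Zfp113 and Zfp612, and the one that fell was Zfp263, all C2H2 zinc finger genes. In the first series no Zfp probe was called, when 0.00887% of all tested probes were, and 6 Zfp probes had an unadjusted p under 0.05, a level that 3.02% of all tested probes reached. Scaled to the array medians, 24 Zfp probes were called in the second series, 7 higher and 17 lower, and 21 over both series, 6 higher and 15 lower, with 3938 and 4184 called among all tested probes.

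Zfp113 had the largest genotype difference of the members. In the second series its log2 intensity was 8.69, 8.62, 8.44 and 8.54 in AtrxΔE2 mice, against 7.99, 7.99, 8.29 and 8.06 in wild-type mice. The groups did not overlap, and the difference was 0.49 (SE 0.067, adjusted p = 0.00134 by limma). The first-series arrays gave 8.04, 7.93 and 7.99 in AtrxΔE2 mice, against 7.96, 8.14 and 8.04 in wild-type mice, which overlapped, with a difference of -0.06. The difference between the series was 0.55, with an adjusted p of 0.0626 by limma, which misses the threshold. The call in the second series remained when any single array was left out (highest adjusted p 0.00734), and it was lost when consecutive arrays were averaged in pairs (adjusted p = 0.0979). In the second series, 5 of 9 choroid plexus markers were also called higher in AtrxΔE2 mice and 2 of 4 thalamic markers lower, and their part in these calls was not tested.

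Zfp612 reached 8.75, 8.75, 8.69 and 8.51 in AtrxΔE2 mice of the second series, against 8.45, 8.40, 8.44 and 8.40 in wild-type mice, with every mutant above every wild-type mouse (log2 difference 0.25, limma adjusted p = 0.0316). Its first-series difference was 0.14 and those groups overlapped. Zfp263, a C2H2 factor whose human form binds GA-rich DNA, read 7.24, 7.12, 7.23 and 7.19 in AtrxΔE2 mice of the second series, against 7.40, 7.33, 7.34 and 7.39 in wild-type mice. It fell by 0.17 (limma adjusted p = 0.0406), again without overlap, and had a difference of 0.03 in the first series. Neither call was firm: leaving out 1 array at a time ended that of Zfp612 in 7 of 18 fits and that of Zfp263 in 10 of 18.

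Of the members not called, Zfp644, whose human form is a partner of the histone methyltransferases G9a and GLP, had differences of one sign in both series. It read 8.76, 8.55, 8.79 and 8.76 in AtrxΔE2 mice of the second series, against 8.97, 9.03, 8.94 and 8.82 in wild-type mice. On the first-series arrays it read 8.62, 8.46 and 8.56 in AtrxΔE2 mice, against 8.76, 8.88 and 8.80 in wild-type mice. The groups did not overlap in either series, yet the pooled log2 difference of -0.25 had a limma adjusted p of 0.139. Zfp277 had -0.09 over both series (adjusted p = 0.173), -0.13 in the first, where the groups did not overlap, and -0.05 in the second, where they did. Zkscan14 (formerly Zfp99) had the largest difference of the first series, at 7.91, 8.0 and 7.95 in AtrxΔE2 mice, against 7.36, 7.47 and 7.73 in wild-type mice. That difference of 0.43 had a limma adjusted p of 0.856, and the second series gave -0.17 with overlapping groups.

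**Figure D2:**
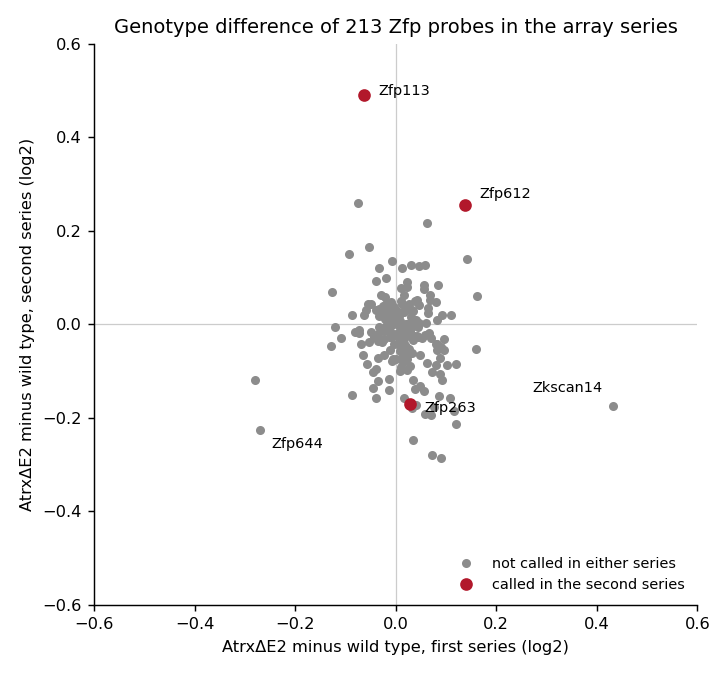
Each point is one of the 213 tested Zfp probes, placed by its log2 difference between AtrxΔE2 and wild-type mice in the first array series (horizontal) and in the second (vertical); red points are the 3 probes called in the second series. Zfp113 stands at 0.49 in the second series and -0.06 in the first, Zkscan14 at -0.17 and 0.43, and Zfp644 is below 0 in both.

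Treatment with 5-ALA came with called differences in both directions among the Zfp genes. Between AtrxΔE2+5-ALA and AtrxΔE2 mice, 14 Zfp probes rose and 5 fell, 19 of 213 or 8.92%, when 6.75% of all tested probes and 7.41% of the probes of like signal were called. Of all tested probes 3.49% rose and 3.26% fell. The members' share called was thus near the background. The median log2 difference was 0.017 for the Zfp probes and -0.00047 for those of like signal, and 120 Zfp probes (56.3%) were higher after 5-ALA, against 50.3%. This comparison shares its AtrxΔE2 arrays with the genotype comparison of the second series. The opposite signs of those Zfp medians are therefore not independent of each other. By signal class, the Zfp medians were 0.053 in the middle class and 0.039 in the next brighter one, against 0.0025 and -0.0064 for the other probes, and -0.0069, -0.0029 and 0.017 in the dimmest, the next and the brightest class. The difference from the probes of like signal was 0.013 to 0.051 under cyclic loess, median scaling and the authors' deposited table, with the sign held, and 0.0043 when members were taken by current RefSeq symbol (228 probes).

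**Figure D3:**
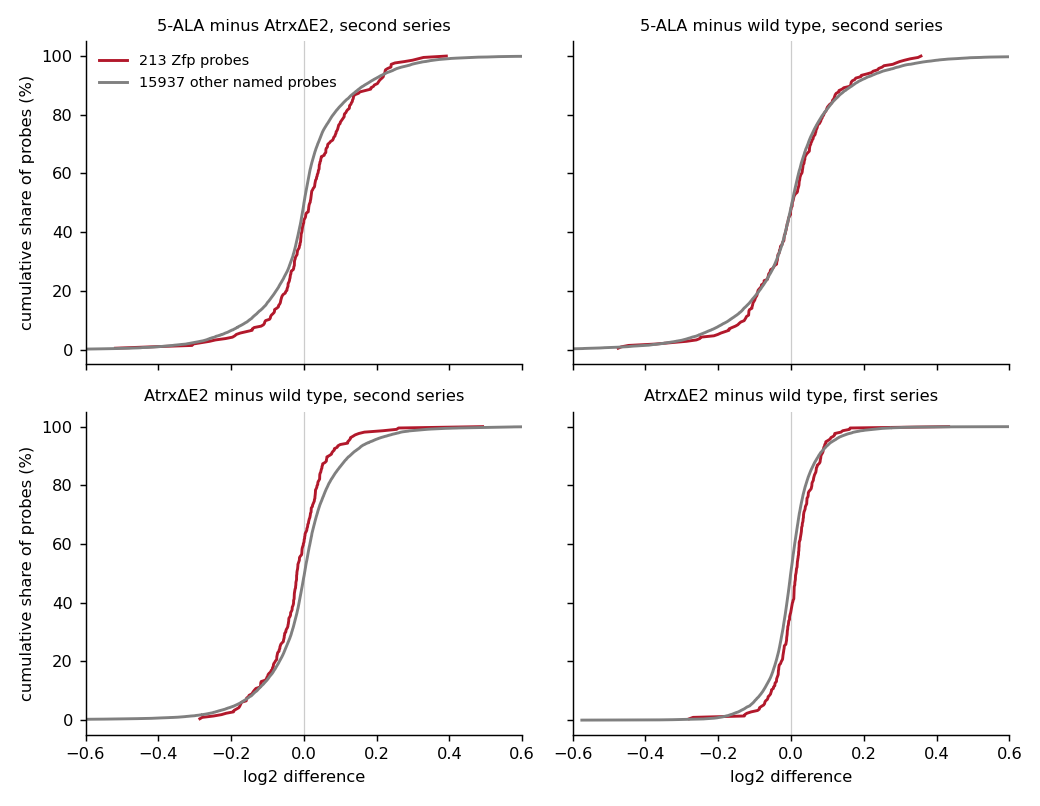
Cumulative share of the 213 tested Zfp probes (red) and of all 15937 other named tested probes (grey) by log2 difference in 4 comparisons; the other probes are not matched for signal here, and values beyond 0.6 in either direction are outside the frame. The curves nearly coincide for 5-ALA against wild type; the Zfp curve lies to the right for 5-ALA against AtrxΔE2 and for the genotype in the first series, and to the left for the genotype in the second series, by the small medians given in the text.

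The 4 AtrxΔE2+5-ALA arrays were not alike. When arrays 1 and 2 of this group were left out, 5 Zfp probes were called against AtrxΔE2 mice, 3 higher and 2 lower (2.35%, with 1.92% of all tested probes), and when arrays 3 and 4 were left out, 55 were called, 34 higher and 21 lower (25.8%, with 18.5%). Those 5 probes were Zfp472, Zfp110, Zfp275, Zfp598 and Zfp655. All 5 were also called against AtrxΔE2 mice with any single array left out, as were Zfp263 and Zmym2. Consecutive arrays of a group had an estimated correlation of 0.34 within pairs, whereas the main fit takes the arrays as independent. What such arrays shared is not stated in the labels. No Zfp probe was called when consecutive arrays were averaged in pairs, a fit in which 0.102% of all tested probes were called. With those pairs as a random block 7 were called, 5 higher and 2 lower (3.29%, with 1.65% of all tested probes). In the same contrast, 5 of 7 striatal, 6 of 9 choroid plexus and 4 of 10 microglial markers fell, and their part in the Zfp calls was not tested.

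Because these 5 genes carry the 5-ALA result that least depends on single arrays, their promoters are shown: 300 bases of the plus strand each, from 250 before to 50 after the annotated start, as RefSeq gives them on GRCm38.p6. They lie at chr17:32965581-32965880 (Zfp472), chr7:12834511-12834810 (Zfp110), chrX:73342370-73342669 (Zfp275), chr17:24669437-24669736 (Zfp598) and chr5:145231492-145231791 (Zfp655), and capitals mark CpG sites.
Zfp472: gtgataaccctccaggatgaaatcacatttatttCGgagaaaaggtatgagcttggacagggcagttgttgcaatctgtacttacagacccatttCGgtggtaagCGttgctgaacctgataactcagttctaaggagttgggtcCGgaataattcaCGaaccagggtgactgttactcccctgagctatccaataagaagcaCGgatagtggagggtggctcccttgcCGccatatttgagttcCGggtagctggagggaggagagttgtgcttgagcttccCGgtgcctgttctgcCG
Zfp110: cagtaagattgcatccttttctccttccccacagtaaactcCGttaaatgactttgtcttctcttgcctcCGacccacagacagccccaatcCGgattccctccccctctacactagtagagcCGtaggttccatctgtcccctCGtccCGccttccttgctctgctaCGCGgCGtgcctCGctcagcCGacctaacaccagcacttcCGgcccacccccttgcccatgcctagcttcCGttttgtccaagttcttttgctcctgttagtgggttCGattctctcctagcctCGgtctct
Zfp275: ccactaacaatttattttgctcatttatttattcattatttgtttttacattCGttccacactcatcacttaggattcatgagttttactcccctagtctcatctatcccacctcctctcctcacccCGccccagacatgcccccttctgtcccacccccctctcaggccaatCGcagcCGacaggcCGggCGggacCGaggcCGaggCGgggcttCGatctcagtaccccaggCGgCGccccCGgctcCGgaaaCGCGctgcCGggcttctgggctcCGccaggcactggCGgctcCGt
Zfp598: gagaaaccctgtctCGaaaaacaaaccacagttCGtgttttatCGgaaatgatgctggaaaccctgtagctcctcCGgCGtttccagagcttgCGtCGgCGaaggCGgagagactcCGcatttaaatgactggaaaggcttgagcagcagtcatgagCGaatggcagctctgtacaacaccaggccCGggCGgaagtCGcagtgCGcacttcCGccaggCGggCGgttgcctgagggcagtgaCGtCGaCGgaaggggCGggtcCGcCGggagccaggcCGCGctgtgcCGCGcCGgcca
Zfp655: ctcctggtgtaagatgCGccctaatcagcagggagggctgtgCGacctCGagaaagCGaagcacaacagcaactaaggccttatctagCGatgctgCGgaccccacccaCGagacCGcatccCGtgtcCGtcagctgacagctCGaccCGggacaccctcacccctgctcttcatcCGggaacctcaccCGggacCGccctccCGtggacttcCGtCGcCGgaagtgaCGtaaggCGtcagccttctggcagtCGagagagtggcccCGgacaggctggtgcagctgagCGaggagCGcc
The windows hold 10 CpG sites for Zfp472, 15 for Zfp110, 20 for Zfp275, 29 for Zfp598 and 25 for Zfp655. The genes that fell after 5-ALA, Zfp472 and Zfp110, have the fewest CpG of the 5, but this order did not hold for other called members. Zfp511 and Zfp709, which also fell, hold 33 and 23 CpG, and Zfp112 and Zfp93, which rose, hold 8 and 10. RefSeq windows were matched for 167 of the 212 Zfp genes tested, with a median of 17 CpG (quartiles 12 and 24.5), the same median as the 12583 other named genes (17, quartiles 6 and 26). A G-quadruplex pattern, 4 runs of at least 3 G on either strand with spacers of 1 to 7 bases, occurred in 40 Zfp windows (24.0%), against 24.5% of the other named genes and 18.1% of all 27025 windows in the table. Of the 17 called Zfp genes with a window, 4 (23.5%) held it, Zfp275 among them. A match is a string of letters, and nothing was measured here about structure or binding.

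Zfp598, the ubiquitin ligase that senses collided ribosomes, had the largest called rise. It read 8.21, 8.13, 7.85 and 7.88 after 5-ALA, against 7.67, 7.56, 7.66 and 7.62 in AtrxΔE2 mice. Every treated mouse was above every untreated mutant, the first pair of arrays well above the second (log2 difference 0.39, SE 0.07, limma adjusted p = 0.0045). Wild-type mice of the same series were at 7.72, 7.69, 7.83 and 7.67, below all treated mice, and the difference of 0.29 from wild type had an adjusted p of 0.0162 by limma, which was lost without 5-ALA array 2 (0.0579).

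Zfp275, an X-linked C2H2 gene, was even across the treated mice. It read 7.38, 7.36, 7.35 and 7.45 after 5-ALA, against 7.00, 6.99, 7.25 and 7.10 in AtrxΔE2 mice and 7.10, 7.09, 7.13 and 7.09 in wild-type mice. It rose by 0.30 relative to AtrxΔE2 mice (SE 0.05, limma adjusted p = 0.00271), and the treated mice overlapped neither other group. Zfp655 read 8.21, 8.23, 8.11 and 8.27 after 5-ALA, against 7.95, 8.0, 8.01 and 7.97 in AtrxΔE2 mice, a rise of 0.22 with no overlap (limma adjusted p = 0.00361). Zfp263, which was lower in AtrxΔE2 than in wild-type mice of this series, read 7.43, 7.52, 7.38 and 7.34 after 5-ALA and rose by 0.22 against AtrxΔE2 mice (limma adjusted p = 0.00654). Treated and wild-type mice overlapped for Zfp263, at a difference of 0.05 (adjusted p = 0.449); since these comparisons share the AtrxΔE2 arrays, the opposite signs are not independent of each other.

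Zmym2 read 9.66, 9.64, 9.37 and 9.44 after 5-ALA, against 9.24, 9.22, 9.17 and 9.18 in AtrxΔE2 mice, a rise of 0.33 (limma adjusted p = 0.00909). Wild-type mice, at 9.29, 9.20, 9.25 and 9.14, were also below every treated mouse. Zfp12 read 7.04, 7.13, 6.74 and 6.84 after 5-ALA, against 6.68, 6.62, 6.69 and 6.66 in AtrxΔE2 mice, a rise of 0.28 without overlap (limma adjusted p = 0.0258). The first pair of treated arrays was again the higher one for both genes, and the call of Zfp12 was lost without 5-ALA array 1 or 2 or AtrxΔE2 array 4, 5 or 7. Further rises were those of Zfp112 (0.24), Zfp346 (0.22, a protein that binds double-stranded RNA), Zfp106 (0.19, an RNA-binding protein needed by motor neurons) and Zfp93 (0.19), with limma adjusted p-values of 0.0178 to 0.0414, and leaving out 5-ALA array 1 or 2 ended the call of each of these 4.

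The genes that fell after 5-ALA were fewer. Zfp472 read 7.29, 7.39, 7.44 and 7.50 after 5-ALA, against 7.70, 7.65, 7.76 and 7.75 in AtrxΔE2 mice and 7.75, 7.77, 7.89 and 7.71 in wild-type mice. All treated mice were below all others, and the fall of 0.31 had the smallest adjusted p of the members in this comparison (limma, 0.00192). In the first series the same probe read 7.44, 7.40 and 7.45 in AtrxΔE2 mice, against 7.53, 7.50 and 7.46 in wild-type mice, so these AtrxΔE2 mice lay within the range of the treated mice of the second series and 2 of the 3 wild-type mice just above it. Zfp110, of the family named for binding the p75 neurotrophin receptor, read 6.91, 6.88, 6.91 and 6.98 after 5-ALA, against 7.18, 7.17, 7.13 and 7.06 in AtrxΔE2 mice. It fell by 0.22 with no overlap (limma adjusted p = 0.00353).

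Zfp410, which activates the gene for the nucleosome remodeller CHD4, read 6.78, 6.62, 7.01 and 6.91 after 5-ALA, against 7.09, 7.26, 7.12 and 7.09 in AtrxΔE2 mice, and fell by 0.31 (limma adjusted p = 0.0232). Its target Chd4 differed by 0.07 and was not called (adjusted p = 0.755). Zfp511 and Zfp709 fell by 0.26 and 0.19 (limma adjusted p = 0.0173 and 0.0332), and the calls of Zfp410, Zfp511 and Zfp709 were lost without 5-ALA array 1 or 2. Rnf112, chosen after its values were seen as the member with the largest difference in this comparison, read 7.77, 7.72, 8.43 and 8.13 after 5-ALA, against 8.36, 8.68, 8.64 and 8.44 in AtrxΔE2 mice, with overlapping groups and a difference of -0.52 that was not called (adjusted p = 0.0508).

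**Figure D4:**
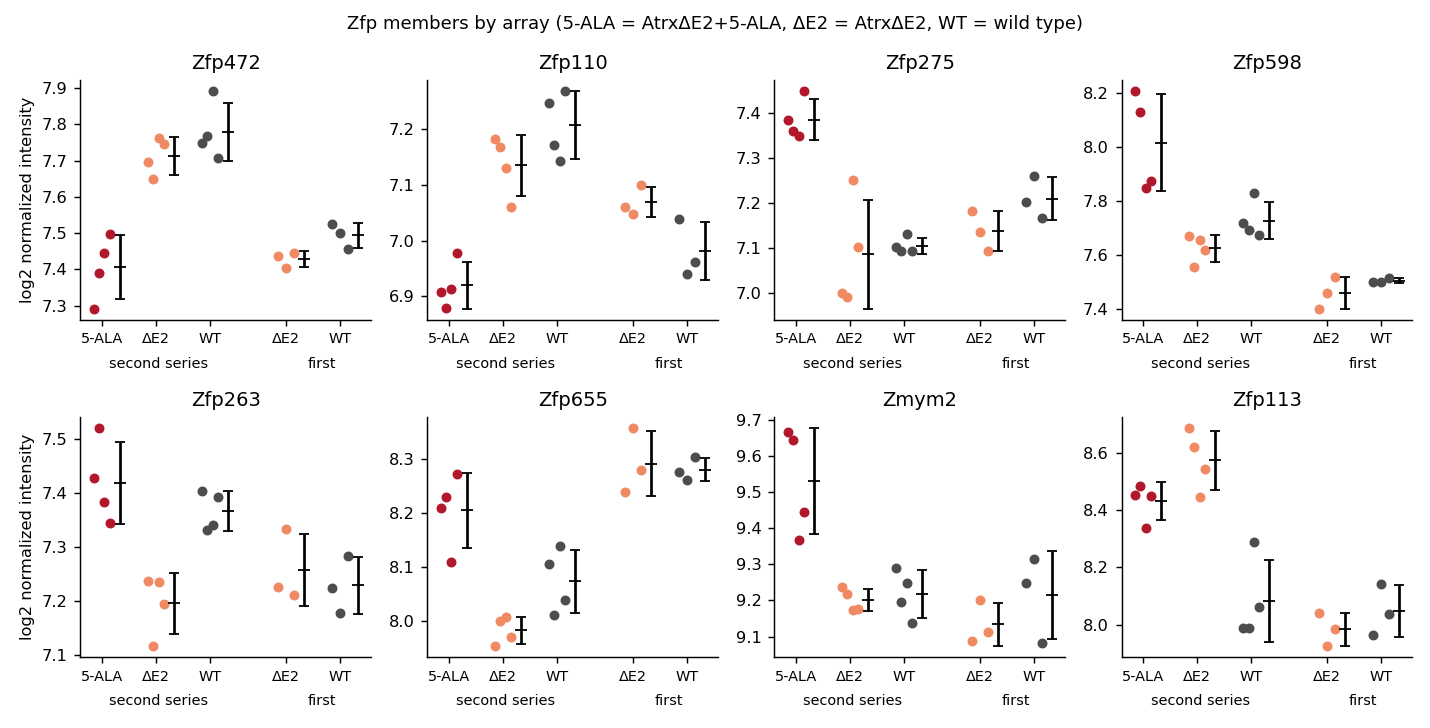
Log2 normalized intensity of 8 Zfp members on every array, by group and array series; points are arrays, bars the mean and SD of a group (n = 4 in the second series, 3 in the first). Zfp472 and Zfp110 are lower on all 4 AtrxΔE2+5-ALA arrays than on any other array of the second series, Zfp275, Zfp598 and Zmym2 higher, and Zfp113 is high in both mutant groups of the second series, with all first-series arrays between 7.93 and 8.14.

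Against wild-type mice, 16 Zfp probes rose and 12 fell after 5-ALA, 28 of 213 or 13.1%, when 10.4% of all tested probes (5.49% higher, 4.87% lower) and 11.6% of the probes of like signal were called. The median log2 difference was 0.0037 for the Zfp probes and 0.0054 for the probes of like signal. The direction of these calls depended on the scaling. In the authors' deposited table of processed values, with 5 added before log2, 5 Zfp probes were called higher and 32 lower. The probes of like signal had a median of -0.070 there, and the share of all probes called is not reported here. After median scaling 12 were higher and 3 lower (7.04%, with 7.22% of all tested probes). This comparison shares the 5-ALA arrays with the one against AtrxΔE2 mice and joins the treatment to the genotype.

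Among the probes called against wild type, Zfp113 was higher by 0.35 (limma adjusted p = 0.00653), at 8.45, 8.48, 8.34 and 8.45 after 5-ALA, against 7.99, 7.99, 8.29 and 8.06 in wild-type mice. It thus lay above wild type in both AtrxΔE2 groups of the second series, and 5-ALA-treated and untreated mutants overlapped (difference -0.14, adjusted p = 0.228). Zfp12 rose by 0.33, Zmym2 by 0.31, Zfp523 by 0.30 and Zfp275 by 0.28 against wild type, with limma adjusted p-values of 0.00324 to 0.037. The call of Zfp523 was lost without 5-ALA array 1 or 2 or wild-type array 4, 6 or 7, and the other 3 stayed called with any single array left out. The largest falls were those of Zfp87 and Rnf114. Zfp87 read 7.55, 7.65, 8.27 and 8.07 after 5-ALA, against 8.41, 8.26, 8.40 and 8.38 in wild-type mice, an overlapping pair of groups with a difference of -0.47 (limma adjusted p = 0.0298). Rnf114 read 7.91, 7.84, 8.51 and 8.19 after 5-ALA, against 8.53, 8.41, 8.52 and 8.77 in wild-type mice (-0.45, limma adjusted p = 0.0365), also with overlap, and both calls were lost without 5-ALA array 1 or 2. Zfp472, Zfp110 and Zfp709 fell by 0.37, 0.29 and 0.26 without overlap, and with any single array left out these 3 stayed called.

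Smaller called differences against wild type were those of Zfp592, Zfp512, Zfp385b and Zfp41, higher by 0.16 to 0.18, and of Zfp746, Zfp418, Zfp317 and Zfp384, at -0.16 to -0.11. Zfp746, also known as PARIS, is a repressor of the gene for PGC-1α. Zfp68 fell by 0.33 (limma adjusted p = 0.0411), with treated mice at 8.17, 7.66, 7.80 and 7.88, against 8.21, 8.26, 8.26 and 8.09 in wild-type mice, and array 1 of the treated group stood inside the wild-type range. With 1 array left out at a time, the call of Zfp512 remained in all 18 fits, while each other gene of this paragraph lost its call in 5 or more of them, Zfp68 in 10.

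The members best known from other work were mostly not called in any comparison. Zfp57, which keeps DNA methylation at imprinted regions, was at 5.80, 5.72, 5.70 and 5.71 after 5-ALA, 5.74, 5.71, 5.71 and 5.71 in AtrxΔE2 mice and 5.69, 5.71, 5.75 and 5.71 in wild-type mice, near the blanks: it exceeded them on 6 of 18 arrays. Zfp42 (Rex1), a marker of pluripotent cells, and Zfp36 (tristetraprolin), which binds AU-rich messenger RNA for decay, differed by 0.05 or less in every comparison. Both probes were dim, with mean log2 intensities over the arrays of 5.93 for Zfp42 and 5.80 for Zfp36. Their small differences therefore do not show that the RNA of these genes changed little. Zbtb18 read 9.65, 9.88, 9.33 and 9.39 after 5-ALA, against 9.49, 9.45, 9.18 and 9.25 in AtrxΔE2 mice, with overlap and a difference of 0.22 (adjusted p = 0.365). Zfp281, a repressor of pluripotency genes, had 0.20 in the same comparison (adjusted p = 0.0976). Zfp423, needed for cerebellar development, had -0.14 between AtrxΔE2 and wild-type mice of the second series (adjusted p = 0.0842) and overlapping groups. Zfp365, Zfp148, Zfp207, Zfp326, Zfp335, Zfp292, Zfp521 and Zfp536 had adjusted p-values above 0.1 in every comparison by limma. Zfp553, the only gene with both of its probes tested, had differences of -0.026 and 0.042 after 5-ALA against AtrxΔE2 mice, neither called.

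Zfp genes lie in clusters that arose by duplication, and 52 tested probes fell into 13 runs of at least 3 members with no more than 2 other protein-coding genes between neighbours. No probe in these runs was called between AtrxΔE2 and wild-type mice in either series. Of all tested probes, 0.00887% were called in the first series and 2.41% in the second, so few calls would fall among 52 probes. In the first series 39 of the 52 probes were on the higher side in AtrxΔE2 mice, against 62.9% of all Zfp probes. The second series had 16 of 52, against 39.4%. After 5-ALA 29 of 52 were higher than in AtrxΔE2 mice, against 56.3% of all Zfp probes, with 5 called higher and 1 lower. Of the 160 member probes outside the runs, 9 were called higher and 4 lower, and 6.75% of all tested probes were called.

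The longest run, 7 genes that RefSeq orders Zfp180, Zfp112, Zfp235, Zfp111, Zfp108, Zfp93 and Zfp61, had log2 differences of 0.079, 0.24, -0.0061, 0.044, 0.095, 0.19 and 0.12 between 5-ALA-treated and untreated AtrxΔE2 mice, with Zfp112 and Zfp93 called. All 7 were on the lower side in AtrxΔE2 against wild-type mice of the second series, at -0.12 to -0.0056, none called. Both comparisons use the same AtrxΔE2 arrays, so their opposite signs are not independent of each other. The run of Zfp455, Zfp458, Zfp457, Zfp456 and Zfp459 had positive differences in the first series for all 5, at 0.019 to 0.11, and 2 of 5 positive in the second. The largest of these differences are within the range of the single members outside the runs, and neighbours of near-identical sequence may share transcripts on a probe, so they are not independent measurements.

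**Figure D5:**
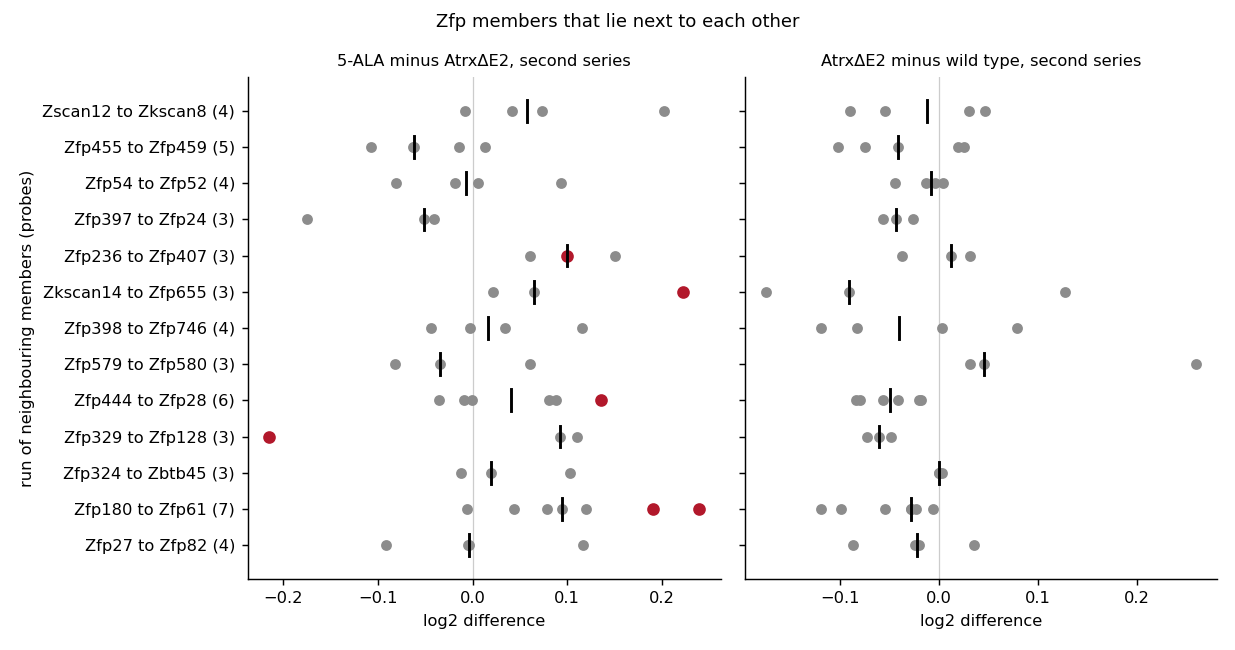
Log2 differences of the 52 Zfp probes in 13 runs of neighbouring members, a run per line with its first and last gene and its number of probes; points are probes, red where called, and the black bar is the median of a run. Called probes occur only in the left panel (5-ALA against AtrxΔE2), in the runs that hold Zfp112 and Zfp93, Zfp655, Zfp28, Zfp110 and Zfp236.

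A list of 33 genes for heterochromatin and silencing was read at the RNA level, 31 of them tested. It holds ATRX partners beside machinery that KRAB zinc finger proteins recruit. After 5-ALA, 7 of 31 rose and 0 fell against AtrxΔE2 mice, when 3.49% of all tested probes rose and 3.26% fell, with a median log2 difference of 0.098, against -0.00041 over all tested probes. These were Dnmt1 (the maintenance DNA methyltransferase, 0.46), Trim33 (0.34), Ehmt2 (G9a, 0.31), Setdb1 (0.29), Morc2a (0.27), Morc3 (0.22) and Pphln1 (0.20), with limma adjusted p under the threshold. How far these 7 calls depend on single arrays is not reported here. Dnmt1, the largest rise, read 8.04, 8.06, 7.82 and 7.56 after 5-ALA, against 7.39, 7.24, 7.46 and 7.53 in AtrxΔE2 mice. Without 5-ALA arrays 1 and 2, only 1.92% of all tested probes were called in this comparison. Against wild-type mice 7 of 31 rose and 2 fell, with 5.49% and 4.87% of all tested probes. Those that rose were Dnmt1, Setdb1, Ehmt2, Trim24, Rif1, Morc2a and Dnmt3a. Those that fell were Atrx, the targeted gene (-0.39), and Dnmt3b (-0.10). After 5-ALA, Trim28 differed by 0.12 from AtrxΔE2 mice (limma adjusted p = 0.389) and Daxx by 0.11 (limma adjusted p = 0.507), neither called. Against wild-type mice the differences were 0.20 for Trim28 (limma adjusted p = 0.0903) and 0.084 for Daxx (limma adjusted p = 0.575), again not called. Between AtrxΔE2 and wild-type mice of the second series the only call in the list was Trim33, which fell by 0.24 (limma adjusted p = 0.0322). Its fall here and its rise after 5-ALA rest on the same AtrxΔE2 arrays and are not independent of each other. Other zinc finger families by name (61 probes, such as Zbtb, Zic and Zkscan) had 2 rises and 1 fall after 5-ALA against AtrxΔE2 mice, with 6.75% of all tested probes called and a median of 0.0086. Between AtrxΔE2 and wild-type mice of the second series they had 3 falls, all of Zic genes, with 2.41% of all tested probes called.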

How the data were processed

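Hippocampal RNA of 18 mice was hybridised to 1 single-colour array per mouse. The deposited scanner files hold the linear intensity of each spot (median at the red wavelength), per the file headers, before normalization; the deposited table of processed values, also linear intensity on a scale that is not given in the sources used here, served as an alternative, with 5 or 1 added before log2. Groups come from the labels, array series from the arrays' identifiers. From the authors' spot intensity, values were background-corrected with normexp (offset 50) in limma 3.58.1 under R 4.3.3, taken to log2, averaged over the spots of a probe and quantile normalized; spots marked unusable were set to missing, which touched 82 tested probes. Of 23473 probes, 22538 passed the filter (above the 95th percentile of the blanks on at least 4 arrays). The limma model had a mean for each of the 5 group and series cells, so that an adjusted p compares groups against the spread between mice of one group and series, and the number of arrays limits the precision. The fit was tested on simulated data. Gene symbols were updated through RefSeq (GRCm38.p6). Summaries and figures used Python 3.11.15, pandas 2.3.3 and matplotlib 3.10.9.

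The text names up to 10 risen and 10 fallen Zfp probes of a comparison, ordered by size; where fewer than 4 were called, the 4 of smallest p; a fixed list of members with known roles; and called genes of the silencing list. The members, lists and tests were chosen with earlier results of these data known. Probe sequences, zinc finger counts and KRAB domains were not analysed here.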

Additional observations from a re-analysis of the deposited data

Results flagged for a closer look

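Within the groups of 4 arrays, 7 of 153 sets of values of the named Zfp probes had 1 array further from the others than Dixon's 95% critical value allows, and chance alone flags about 1 set in 20. In AtrxΔE2 mice, array 4 stood apart for 3 probes: Rnf114 at 8.32 with the others at 8.59 to 8.63, Zfp287 at 5.87 with the others at 5.94 to 5.95, and Zfp57 at 5.74 with the others at 5.71. AtrxΔE2 array 5 was at 8.55 for Zfp644, with the others at 8.76 to 8.79. In wild-type mice, array 7 was at 5.93 for Zfp42 (others 5.95) and at 5.99 for Zfp536 (others 6.06 to 6.07), and array 5 was at 8.26 for Zfp87, with the others at 8.38 to 8.41.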

How the results depend on the processing

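With 1 array left out at a time, the count of called Zfp probes was 8 to 31 for 5-ALA against AtrxΔE2 (8 without 5-ALA array 1 or 2, 9 without AtrxΔE2 array 5, 12 without AtrxΔE2 array 4, 31 without 5-ALA array 4), 10 to 40 for 5-ALA against wild type, 1 to 4 for the genotype in the second series, and 0 to 1 for the genotype over both series and for the difference between series; the first series gave 0 throughout. The share of all tested probes called in these fits is not reported here. With 1 array left out, the median shift of Zfp against like-signal probes was 0.0043 to 0.027 for the genotype in the first series and -0.0070 to 0.0086 for 5-ALA against wild type. Against 19 called Zfp probes in the main comparison of 5-ALA with AtrxΔE2, array quality weights, median scaling and the deposited table (5 or 1 added) each gave 12, pairs as a random block 7 and pairs averaged 0. Of all tested probes, 6.75% were called in the main fit, 4.32% with median scaling, 1.65% with pairs as a block and 0.102% with pairs averaged. In alternatives chosen after seeing the data, without 5-ALA arrays 1 and 2 the counts were 5 against AtrxΔE2 and 6 against wild type, and 55 and 66 without arrays 3 and 4. The shares of all tested probes called were 1.92% and 1.96% without arrays 1 and 2, and 18.5% and 23.5% without arrays 3 and 4. Against wild type, 28 in the main fit became 17 with array weights, 16 with cyclic loess, 15 with median scaling, 17 with the second series fitted alone, 11 with pairs as a random block and 1 with pairs averaged. All tested probes were called at 10.4% in the main fit, 7.22% with median scaling, 3.1% with pairs as a block and 0.0666% with pairs averaged. For the genotype in the second series, 3 became 24 with median scaling, 1 with a trended robust prior and 1 with pairs as a block. It became 0 with pairs averaged, and over both series 0 became 21 with median scaling and 1 with array weights, as did the difference between series with array weights (1). Median scaling called 17.5% of all tested probes in the second series and 18.6% over both, against 2.41% and 0.444% in the main fit. In the second series 0.652% were called with pairs as a block and 0.16% with pairs averaged.

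The median shift (main values -0.0025 for the genotype over both series, 0.014 in the first, -0.023 in the second, -0.030 for their difference, 0.018 for 5-ALA against AtrxΔE2, -0.0017 against wild type) moved with median scaling to -0.018, 0.0014 and -0.049 for the genotype and 0.029 and -0.016 for 5-ALA. With the deposited table (1 or 5 added) it was 0.038 or 0.031 in the first series, -0.047 or -0.046 in the second, and -0.070 for their difference with either. That table gave 0.051 or 0.035 for 5-ALA against AtrxΔE2, and 0.012 against wild type with 1 added. The additive model gave 0.0080 for 5-ALA against AtrxΔE2, members by current symbol gave 0.0043 and, against wild type, -0.014, and no background correction gave -0.018 for the difference between series. The causes of these moves were not tested. No called difference of a probe named in the text under the naming rule reversed its sign in the alternatives run.

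With the replicate number as a block, 1 Zfp probe was called in the second series and 0 in the first; the call of Zfp113 in the second series was lost. Same-numbered AtrxΔE2 and wild-type arrays did not deviate together throughout (correlations from -0.14 to 0.51 over 7 numbers), so the numbers were not taken as pairs. Number 3 had the correlation of 0.51, and no other number exceeded 0.14. No paired analysis was possible for 5-ALA against AtrxΔE2 because the groups share fewer than 2 numbers within the second series. Membership by finger pattern was not run.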
